A study of Sus scrofa domesticus with 6 samples.

Results

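The genes described here are 7 members of the machinery that prepares peptides for major histocompatibility complex (MHC) class I: B2M, TAP1, TAP2, TAPBP, PSMB8, PSMB9 and NLRC5. They were chosen by exact gene name, and all 7 were among the 23556 genes listed in all 6 libraries of the study. Single cells of pig lung were profiled by droplet RNA sequencing after an orthotopic single-lung transplant, in which the graft lay cold for 24 hours and was then reperfused over 8 hours (ischemia-reperfusion injury, IRI). The 3 control libraries (control replicates 1 to 3) held the whole, unsorted cell suspension of the donors' right lungs after retrograde perfusion. Graft cells were sorted by CD45, the surface protein of blood-derived cells: 2 libraries hold the positive fraction (IRI CD45+ replicates 1 and 2) and 1 holds the negative fraction (IRI CD45-). All tissue was dissociated and treated to remove red cells before sequencing, and the labels give neither the strain nor the age of the pigs. The controls were left unsorted and come from donors, while immune cells of the graft can come from the donor or the recipient. Donor and recipient cells were not separated here. The effects of sorting, of cell origin and of injury therefore cannot be told apart. Words such as rose and fell below compare the groups, which need not hold the same cells. Libraries of 1 group are separate samples per the labels, and p-values measure the spread between them. The unit of all levels is CPM: the number of unique molecular identifiers (UMIs, tags that mark single captured transcripts) of a gene for every 1000000 UMIs of the cells summed, over the 23556 genes shared by all libraries.

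MHC class I molecules carry short peptides from a cell's own proteins to the surface, where CD8 T cells and natural killer cells inspect them. The proteasome cuts the proteins, a transporter pumps the peptides into the endoplasmic reticulum, and a loading complex fits them to the class I heavy chain and its partner beta-2-microglobulin. Interferon gamma raises most of these genes through IRF1 and the coactivator NLRC5, and in a transplanted lung class I molecules of the donor are a main target of the recipient's T cells.

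In the RefSeq annotation of Sscrofa11.1, the build that the submitters' processing notes name, 5 of the 7 genes lie on chromosome 7. TAP2 (25045085 to 25056915), PSMB8 (25058456 to 25061666), TAP1 (25062772 to 25071989) and PSMB9 (25072133 to 25077508) follow each other in that order. Gaps of 1540, 1105 and 143 bases separate these 4 neighbours, so reads at their ends could be assigned to either gene of a pair; whether the counting used strand is not given in the sources used here. TAPBP (29663491 to 29673453) lies 4585982 bases beyond PSMB9. NLRC5 lies on chromosome 6 (18933179 to 19036288) and spans 103110 bases. B2M has 2 annotated records on chromosome 1 (126837721 to 126844043, and 126865767 to 126878501), while the matrices hold a single feature of that name. Reads could be split between the copies, so the absolute level of B2M is uncertain. The 7 class I heavy chain names searched (SLA-1, SLA-2, SLA-3, SLA-6, SLA-7, SLA-8 and SLA-11) matched no feature, and heavy chains were not analysed here.

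The libraries held 19098567 to 40647380 UMIs, and 40812 cells passed the filters, with a median of 1964.0 to 3197.0 UMIs per cell across libraries. Clusters were built without the 7 genes and the other genes of the pathway, and were named by lists of marker genes, so a name such as T-like rests on RNA alone. Unnamed clusters held 6.39% to 9.38% of the control cells, 12.6% and 18.5% of the IRI CD45+ cells and 3.22% of the IRI CD45- cells. The lists of counted genes differed between libraries, within a group too. They held 28666 to 29450 genes in controls and 29145 to 30873 in IRI libraries, and 33025 genes were listed in any library. A difference in how reads were assigned between control and IRI libraries cannot be told apart from the difference between the groups. Cell numbers per class were uneven. Control libraries held 889 to 1144 T-like cells each and IRI CD45+ libraries 773 and 1262, but macrophage-like cells numbered 310 to 434 against 33 and 35.

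In the control lungs, the 7 genes were not ordered alike across the 11 classes that had at least 20 cells in every control library. These orders are descriptions of levels, with no test. B2M, the light chain common to all class I molecules, was highest in the vessel lining. Its level in lymphatic endothelial-like cells was 7623, 7538 and 6159 CPM in control replicates 1, 2 and 3. In endothelial-like cells it was 7751, 5987 and 5760, so the ranges of these classes overlapped. The next class, macrophage-like cells, reached 4425, 4459 and 3919 and overlapped neither its upper nor its lower neighbour. B-like cells were lowest of the 11, at 1674, 1511 and 1671, below plasma-like (1973 to 2016) and T-like cells (2026 to 2070).

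The transporter genes had another order. TAP1, a subunit of the pump that moves peptides into the endoplasmic reticulum, was highest in dendritic-like cells, which specialise in presenting antigen. Its level there was 317.2, 352.3 and 382.1 CPM, above every value of the next class, cytotoxic-like lymphocytes (200.9, 198.1 and 196.4). Cytotoxic-like, T-like, endothelial-like, lymphatic endothelial-like and B-like cells followed with overlapping ranges and means from 198.5 ± 2.27 (SD, n = 3) down to 178.4 ± 14.7. Fibroblast-like cells were lowest, at 93.17, 85.23 and 71.01. TAP2, the other subunit, showed no break in its order: each class overlapped the next, from 60.87 ± 9.19 in endothelial-like to 25.27 ± 4.5 in fibroblast-like cells (SD, n = 3). TAPBP encodes tapasin, which tethers class I molecules to the transporter. Its highest levels were those of endothelial-like cells (196.2, 146.5 and 164.6) and dendritic-like cells (144.1, 148.9 and 148.1), which overlapped.

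The immunoproteasome genes were highest in lymphocytes. PSMB8 and PSMB9 encode catalytic subunits that replace the standard ones and change which peptides are cut. PSMB8 in cytotoxic-like lymphocytes was 531.5, 558.2 and 481.9 CPM, above every value of plasma-like (402.0 to 471.1) and T-like cells (367.3 to 462.9). PSMB9 in the same class was 284.9, 327.7 and 270.4, again clear of the next class, T-like cells (195.4 to 261.0). Their lowest levels were in fibroblast-like cells for PSMB8 (101.4 ± 25) and in smooth muscle- or pericyte-like cells for PSMB9 (57.08 ± 5.50; SD, n = 3). NLRC5, the coactivator that binds class I promoters, was highest in plasma-like cells (125.2, 109.1 and 103.9) and endothelial-like cells (84.74, 101.8 and 104.9), which overlapped. It was lowest in fibroblast-like cells (22.90, 30.68 and 19.29), and a gap without overlap separated dendritic-like cells (54.56 to 62.33) from macrophage-like cells (30.50 to 43.25).

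**Figure D1:**
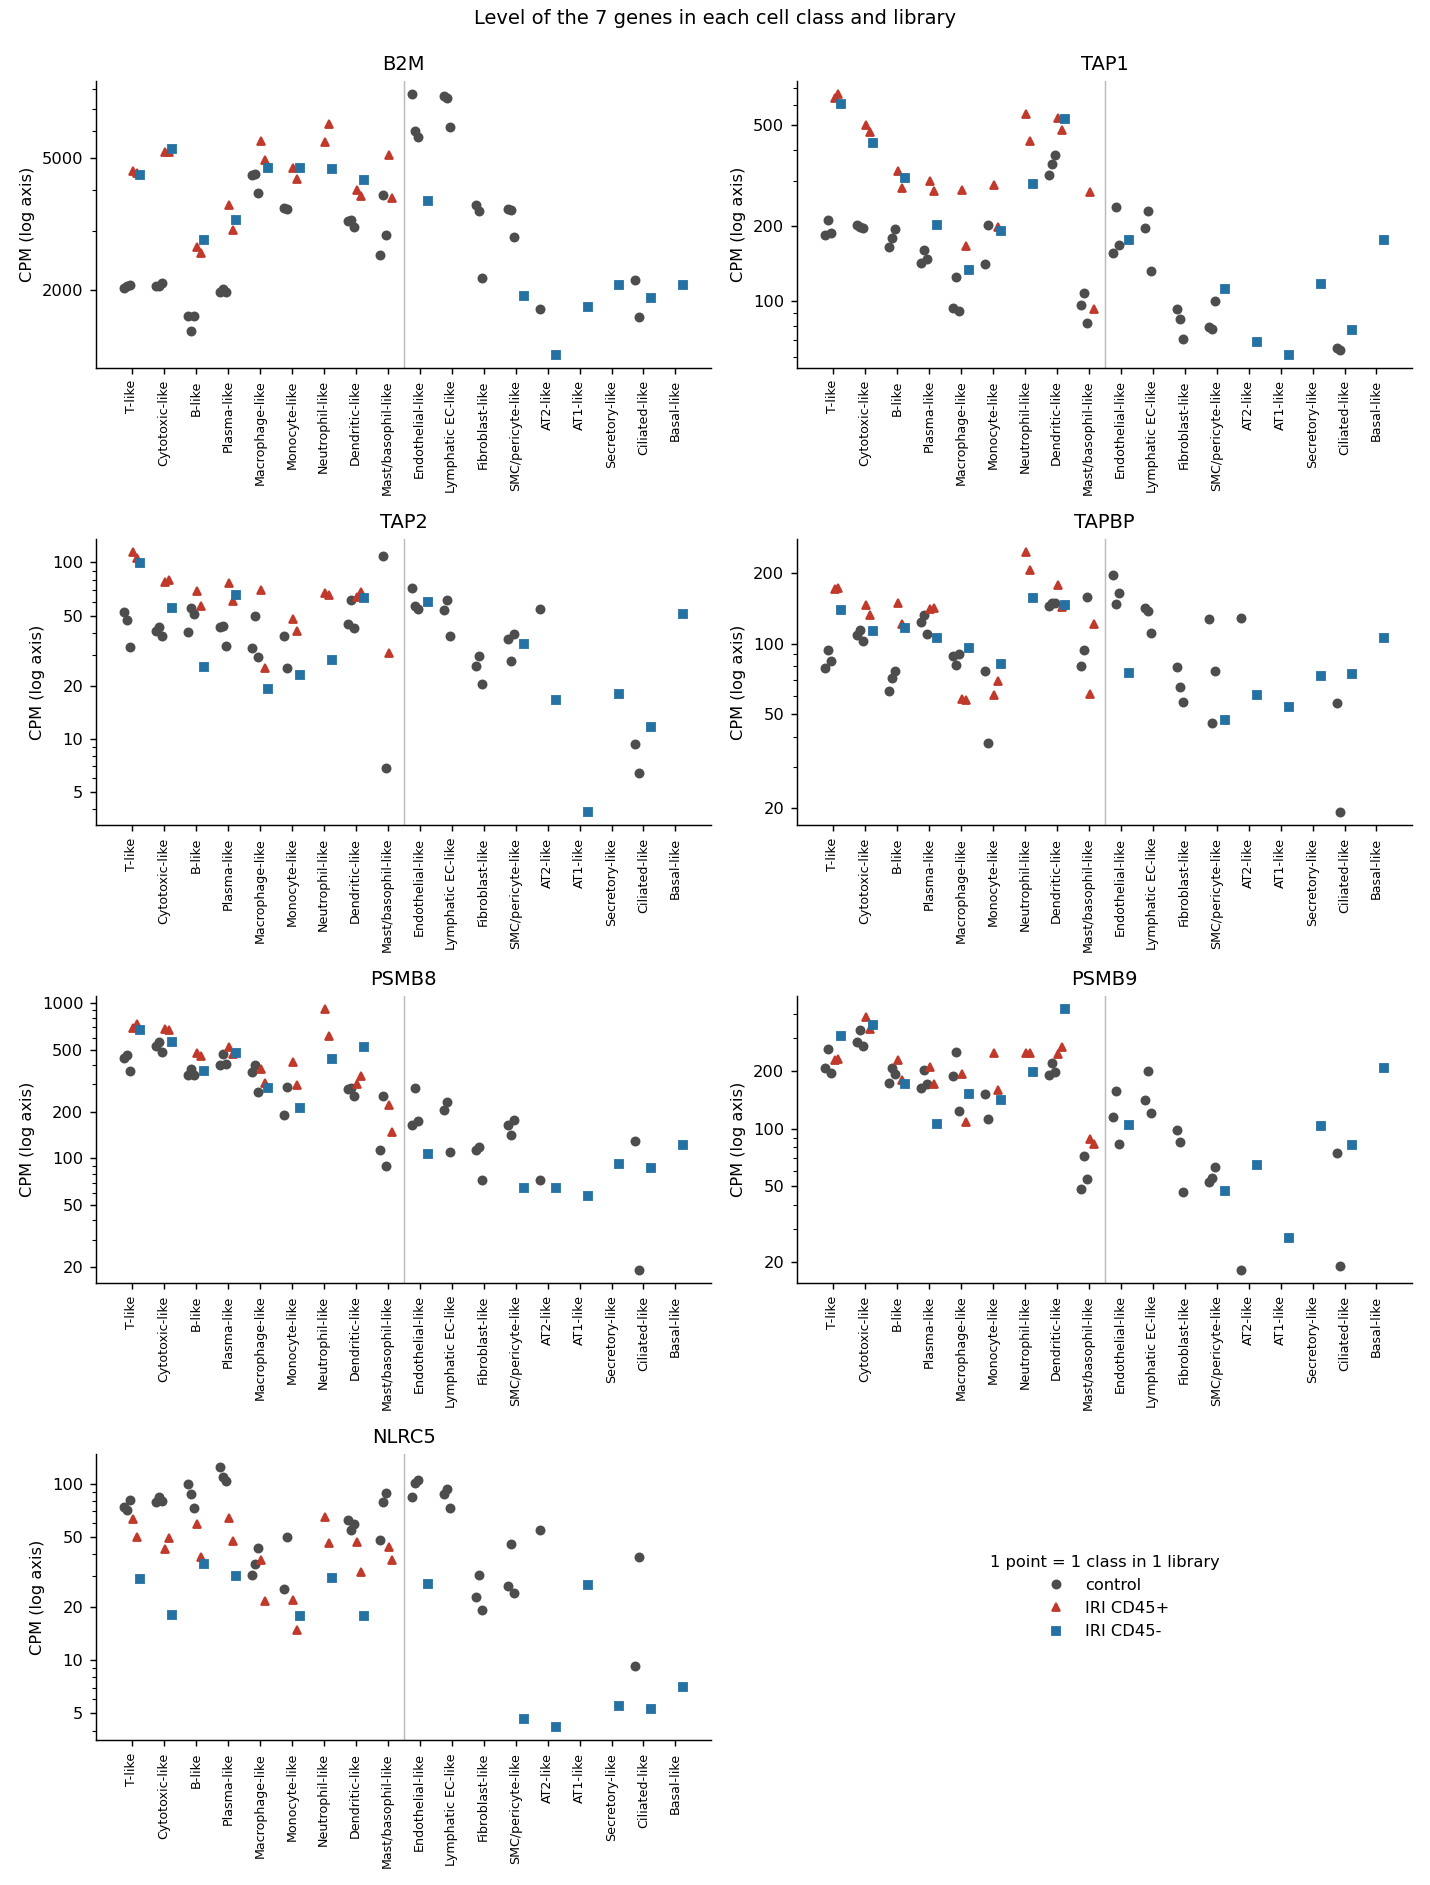
Level of each gene (CPM, log axis) in each cell class; 1 point is the sum of a class in 1 library with at least 20 cells, grey circles are controls, red triangles IRI CD45+ and blue squares IRI CD45-, the grey line parts immune from structural classes, and zero values are not drawn. The red TAP1 points of T-like cells (639.9 and 664.9) sit above all 3 grey ones (183.8 to 209.8), and among the control points of the B2M panel those of the 2 endothelial-like classes are the highest (5760 to 7751).

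Immune cells were compared with structural cells inside each control library, which addresses which compartment of the resting lung carries the machinery. The immune sums held 3736, 4442 and 3740 cells and the structural sums 507, 1473 and 2035, mostly fibroblast-like. In edgeR's quasi-likelihood test with the library as a term, 6 of the 7 genes were higher in immune cells and 1, B2M, was lower, where 32% of 17050 tested genes were called higher and 31.4% lower. The median log2 difference of the 7 was 1.10, against 0.01 over all genes tested.

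PSMB8 differed most. It measured 419.8, 443.4 and 374.4 CPM in immune cells and 130.5, 133.2 and 88.46 in structural cells, with no overlap. The log2 difference was 1.96 ± 0.11 (SE, adjusted p = 1.52e-06, edgeR). PSMB9 followed with 209.0, 255.5 and 199.5 against 95.75, 94.96 and 55.66, a log2 difference of 1.60 ± 0.13 (adjusted p = 1.19e-05, edgeR). Both immunoproteasome genes were thus separated between the compartments in each of the 3 lungs.

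NLRC5 was 82.77, 73.90 and 75.11 in immune and 36.20, 39.85 and 29.49 in structural cells (log2 difference 1.26 ± 0.13, adjusted p = 5.85e-05, edgeR). TAP1 was 176.8, 203.3 and 186.1 against 103.8, 102.3 and 83.48 (1.10 ± 0.10, adjusted p = 2.25e-05, edgeR). The groups of neither gene overlapped. TAP2 and TAPBP had smaller log2 differences, of 0.62 ± 0.11 and 0.52 ± 0.11 (adjusted p = 0.00166 and 0.00321, edgeR). The TAPBP difference was 0.26 to 0.32 and not called when sums were scaled by library totals alone or thinned (adjusted p = 0.0662 to 0.0792, edgeR).

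B2M went the other way. It measured 2448, 2575 and 2516 CPM in immune and 4264, 3845 and 2759 in structural cells. The log2 difference was -0.38 ± 0.11 (adjusted p = 0.0168, edgeR), and it was not called without control replicate 1 (adjusted p = 0.0952 to 0.283 over the settings that lost it), nor without control replicate 2. The choice of structural cells also set the picture. Against endothelial-like cells alone, 2 genes were higher and 1 lower in immune cells, where 3081 of 15135 tested genes were higher and 2220 lower. The log2 differences of TAP2, TAPBP and NLRC5 turned to -0.22, -0.36 and -0.040, none of them called.

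**Figure D2:**
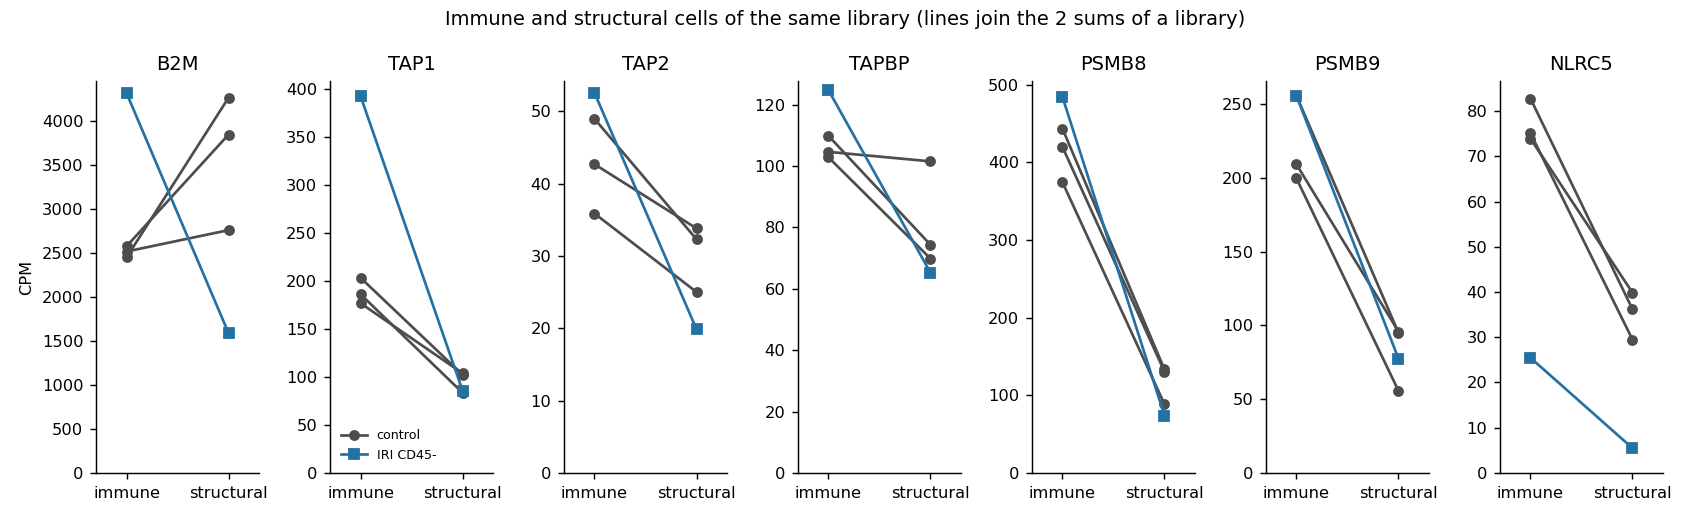
Level (CPM, axes from 0) of the immune sum and the structural sum of the same library; each line is 1 library, grey for the 3 controls and blue for IRI CD45-. In the controls the B2M lines rise from immune to structural cells (2448 to 4264 in replicate 1), those of the other 6 genes fall, and in the IRI CD45- library all 7 fall.

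Control and IRI CD45+ libraries were compared in 7 immune classes that had at least 20 cells in all 5 libraries. TAP1 rose in 6 classes and B2M in 5. TAP2, TAPBP and PSMB8 rose in 3 each, all of them lymphocyte or plasma-like classes, PSMB9 rose in 1, and NLRC5 fell in 3. Over the 48 gene and class pairs tested, edgeR's quasi-likelihood test called 21 higher and 3 lower in IRI CD45+ libraries at an adjusted p of 0.05. In T-like cells 5 of 7 genes rose and 0 fell, where 27.8% of all tested genes were called higher and 31.8% lower. In cytotoxic-like lymphocytes 6 rose and 1 fell (background 26.8% and 32.1%). In B-like cells 4 rose and 1 fell (20.8% and 23.8%).

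The other classes had fewer calls. In plasma-like cells 3 rose and 1 fell, where 14.7% of tested genes were called higher and 20.9% lower. In dendritic-like cells 2 rose and 0 fell (15.6% and 20.9%), and in macrophage-like cells 1 rose and 0 fell (10.5% and 15.6%). None of the 6 genes tested in mast- or basophil-like cells was called by edgeR (12.1% and 14.8%), and TAP2 did not pass the filter on low counts there. At an unadjusted p of 0.05 edgeR had 0 genes lower in T-like and macrophage-like cells, 1 lower in dendritic-like cells and 0 in either direction in mast- or basophil-like cells, and DESeq2 called 0 in each of these cases. The median log2 change of the 7 genes was 1.22 in T-like, 0.41 in cytotoxic-like, 0.35 in B-like, 0.10 in plasma-like, 0.12 in macrophage-like and 0.34 in dendritic-like cells. The median over all tested genes lay between -0.31 and -0.01 in these classes. In T-like and mast- or basophil-like cells scaling by library totals alone moved the share of higher genes among all calls from 46.7% to 34.4% and from 44.8% to 56.6%.

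TAP1 changed in the most classes, 6 of 7. In T-like cells its level was 183.8, 209.8 and 187.0 CPM in controls and 639.9 and 664.9 in IRI CD45+ libraries, with no overlap. The log2 change was 1.98 ± 0.12 (SE, adjusted p = 1.89e-11, edgeR), a 3.94-fold higher level. That change stood at percentile 96.5 of the genes tested in T-like cells. In cytotoxic-like lymphocytes TAP1 went from 200.9, 198.1 and 196.4 to 502.4 and 471.1 (log2 change 1.34 ± 0.09, adjusted p = 9.19e-09, edgeR). In B-like cells it went from 163.7, 178.5 and 193.1 to 329.7 and 280.6, a log2 change of 0.73 ± 0.14 (adjusted p = 0.000131, edgeR). None of these ranges overlapped.

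In plasma-like cells TAP1 rose from 142.6, 159.6 and 146.8 to 299.9 and 273.6 (log2 change 0.83 ± 0.14, adjusted p = 0.000276, edgeR). In dendritic-like cells, where its control level was highest, it rose from 317.2, 352.3 and 382.1 to 534.0 and 480.8 (0.58 ± 0.13, adjusted p = 0.00458, edgeR). With stricter cell filters that log2 change was 0.39 and not called (adjusted p = 0.0513, edgeR). Macrophage-like cells went from 94.34, 124.8 and 91.93 to 276.9 and 165.6. That log2 change was 1.23 ± 0.25 (adjusted p = 0.00418, edgeR), and without IRI CD45+ replicate 1 it was 0.74 (adjusted p = 0.0783). In the mast- or basophil-like class the IRI CD45+ levels of 271.7 and 93.03 lay on both sides of the control range (81.98 to 108.4), with a log2 change of 0.82 ± 0.49 (adjusted p = 0.228, edgeR).

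TAP2 rose in 3 of 6 classes. In T-like cells it was 52.48, 47.09 and 33.04 in controls and 115.1 and 105.5 in IRI CD45+ libraries (log2 change 1.54 ± 0.17, adjusted p = 1.73e-07, edgeR). In cytotoxic-like lymphocytes it was 41.14, 43.25 and 38.31 against 77.78 and 79.91 (0.99 ± 0.13, adjusted p = 1.21e-05, edgeR). In both classes every IRI CD45+ value exceeded every control value. In plasma-like cells the log2 change was 0.65 ± 0.21 (adjusted p = 0.026, edgeR), and it was not called with the replicate block, with DESeq2, without control replicate 3 or without IRI CD45+ replicate 1 (adjusted p = 0.0575 to 0.2 over the settings that lost it). In B-like, macrophage-like and dendritic-like cells the log2 changes of 0.31, 0.55 and 0.45 were not called.

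B2M, the light chain, rose in 5 of 7 classes. In T-like cells it was 2026, 2060 and 2070 CPM in controls and 4561 and 4503 in IRI CD45+ libraries; the log2 change was 1.37 ± 0.10 (adjusted p = 2.76e-10, edgeR). In cytotoxic-like lymphocytes it was 2051, 2052 and 2104 against 5188 and 5180 (1.37 ± 0.07, adjusted p = 1.14e-09, edgeR). Replicates of a group differed little beside that 2.58-fold change. In B-like cells it was 1674, 1511 and 1671 against 2695 and 2583 (0.67 ± 0.11, adjusted p = 2.77e-05, edgeR). In plasma-like cells it was 1974, 2016 and 1973 against 3592 and 3027 (0.63 ± 0.10, adjusted p = 0.000236, edgeR).

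Dendritic-like and macrophage-like cells had higher control levels of B2M and smaller log2 changes. Dendritic-like cells held 3229, 3248 and 3096 in controls and 3987 and 3829 in IRI CD45+ libraries; the log2 change was 0.34 ± 0.08 (adjusted p = 0.00538, edgeR). That change was not called with stricter cell filters, with no filter on low counts or with the replicate block (adjusted p = 0.0653 to 0.294). Macrophage-like cells held 4425, 4459 and 3919 against 5589 and 4913, without overlap but not called (0.41 ± 0.15, adjusted p = 0.0555, edgeR). Across the 7 classes of the same libraries the log2 change of B2M ranged from 0.32 to 1.37.

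TAPBP rose in the T-like, cytotoxic-like and B-like classes. In T-like cells tapasin RNA was 78.58, 94.18 and 84.01 in controls and 169.9 and 171.9 in IRI CD45+ libraries (log2 change 1.22 ± 0.13, adjusted p = 1.11e-07, edgeR). In B-like cells it was 63.11, 71.06 and 76.11 against 148.7 and 120.8 (0.90 ± 0.16, adjusted p = 0.000126, edgeR). Neither pair of ranges overlapped. In cytotoxic-like lymphocytes the change was smaller, from 108.3, 113.7 and 102.0 to 145.6 and 132.2 (0.41 ± 0.10, adjusted p = 0.00332, edgeR). Macrophage-like cells had 88.24, 81.28 and 90.57 in controls and 58.17 and 57.58 in IRI CD45+ libraries. That log2 change of -0.47 ± 0.26 was not called (adjusted p = 0.19, edgeR).

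The 2 immunoproteasome genes, neighbours of TAP1 on either side, did not follow it in size. PSMB8 in T-like cells was 444.8, 462.9 and 367.3 in controls and 689.7 and 736.2 in IRI CD45+ libraries (log2 change 0.97 ± 0.12, adjusted p = 9.18e-07, edgeR). In cytotoxic-like lymphocytes it was 531.5, 558.2 and 481.9 against 680.7 and 671.5 (0.41 ± 0.09, adjusted p = 0.00118, edgeR). In B-like cells the log2 change of 0.35 ± 0.13 (adjusted p = 0.0274, edgeR) was lost in 11 of 18 alternatives (adjusted p = 0.0513 to 0.146), among them the replicate block and the omission of each control and of IRI CD45+ replicate 1.

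PSMB9 was called in 1 of the 7 classes, cytotoxic-like lymphocytes, at 0.33 ± 0.10 (adjusted p = 0.0123, edgeR). The levels were 284.9, 327.7 and 270.4 in controls and 383.8 and 333.7 in IRI CD45+ libraries. The call was lost without control replicate 1, without control replicate 3 and without IRI CD45+ replicate 1 (adjusted p = 0.0592 to 0.0972 over the settings that lost it). In T-like cells the levels of 207.6, 261.0 and 195.4 in controls and 230.4 and 233.1 in IRI CD45+ libraries overlapped (log2 change 0.29 ± 0.13, adjusted p = 0.07, edgeR). Whether PSMB9 changed less than TAP1 within a class was not tested.

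NLRC5 was the member that fell. In cytotoxic-like lymphocytes it was 78.83, 84.08 and 80.15 in controls and 42.95 and 49.24 in IRI CD45+ libraries (log2 change -0.78 ± 0.13, adjusted p = 0.000115, edgeR). In B-like cells it was 100.6, 87.55 and 73.33 against 59.25 and 38.75 (-0.88 ± 0.21, adjusted p = 0.00169, edgeR). In plasma-like cells it was 125.2, 109.1 and 103.9 against 64.27 and 47.40 (-1.13 ± 0.20, adjusted p = 0.000473, edgeR). In these 3 classes each IRI CD45+ value was below each control value. The log2 change was below 0 in the other 4 classes too, from -0.14 in macrophage-like to -1.03 in mast- or basophil-like cells, and not called. Without IRI CD45+ replicate 2 it turned to 0.03 in T-like cells, and over all settings its highest value in macrophage-like cells was 0.11. In T-like cells, where TAP1 and TAP2 had their largest log2 changes of the tested classes, it was -0.18 ± 0.16 (adjusted p = 0.352, edgeR).

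**Figure D3:**
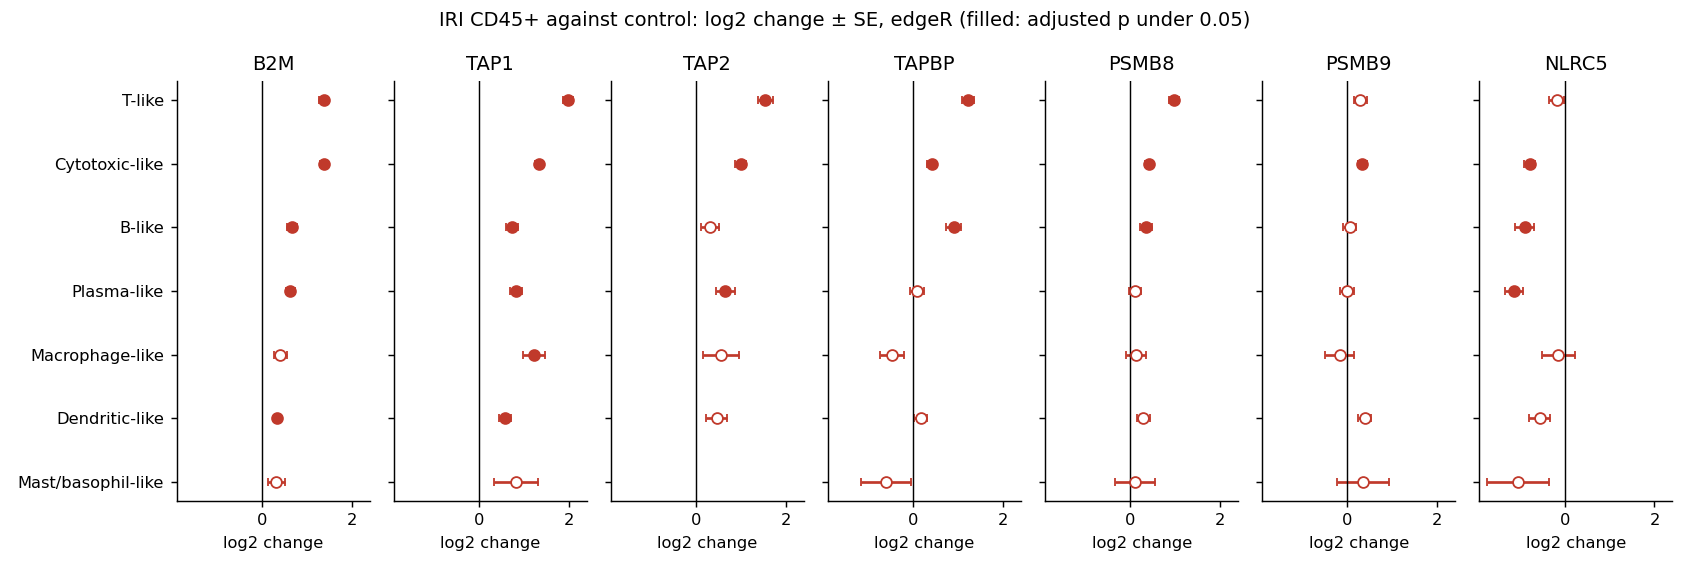
Log2 change of each gene between IRI CD45+ (2 libraries) and control (3 libraries) in each immune class, with edgeR's SE as bars; filled points passed an adjusted p of 0.05. All 7 TAP1 points lie right of 0 (0.58 to 1.98) and all 7 NLRC5 points left of 0 (-0.14 to -1.13), of which 6 and 3 are filled.

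Long genes as a whole were lower in the IRI libraries, and NLRC5 is the longest of the 7. Among genes of 50 to 200 kb, the bin that holds NLRC5, the median log2 change was -0.17 in T-like, -0.14 in cytotoxic-like, -0.10 in B-like and -0.20 in plasma-like cells. Among genes over 200 kb it was -3.0, -2.84, -1.96 and -2.83. The NLRC5 changes of cytotoxic-like, B-like and plasma-like cells lay below the median of their own bin and above that of the longest genes. The other members lie in the bins under 10 kb or from 10 to 50 kb, whose medians in these 4 classes ranged from 0.06 to 0.13. Span was known for 79.7% of the genes tested in cytotoxic-like lymphocytes, which is under the 80% set as a minimum, so the check is void in that class. The part of gene length in the change of NLRC5 was not tested.

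**Figure D4:**
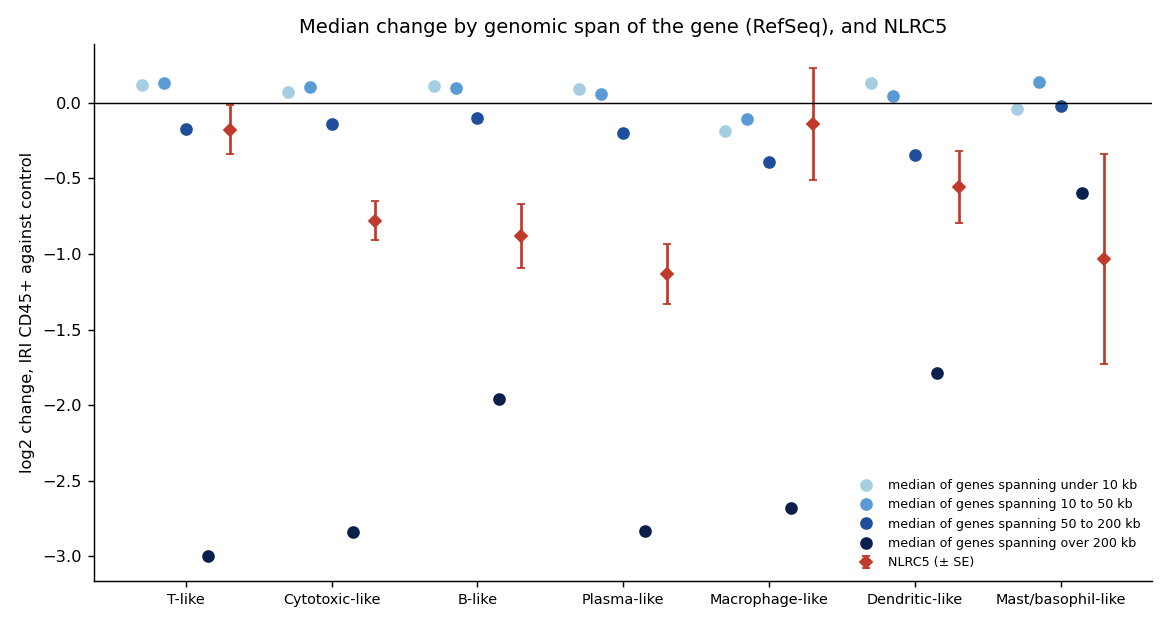
Median log2 change (IRI CD45+ against control) of all tested genes in 4 bins of genomic span, blue points from light to dark with rising span, and of NLRC5 with its SE (red diamonds), for each immune class. Genes over 200 kb sit at -3.0 in T-like cells, far below the other bins, and NLRC5 sits below its bin of 50 to 200 kb in cytotoxic-like, B-like and plasma-like cells.

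The make-up of the classes differed between the groups. Most control T-like cells (68.6%) fell in cluster 0 and most IRI CD45+ T-like cells (53.0%) in cluster 2.6. Cytotoxic-like lymphocytes came mainly from cluster 5 in controls (88.9%) and cluster 9 in IRI CD45+ libraries (90.4%). B-like, plasma-like, dendritic-like and mast- or basophil-like cells lay in 1 cluster each in both groups. The summed level of 12 dendritic markers in T-like cells was 475.9 to 572.1 in controls and 1108 and 1124 in IRI CD45+ libraries. Of the 12, 3 were higher there and none was at 0, and most of the sum was CCR7, a homing receptor that T cells also express. In plasma-like cells 10 monocyte markers summed to 143.9 to 174.4 in controls and 460.0 and 481.4 in IRI CD45+ libraries, with 6 of 10 higher and EREG at 0. In dendritic-like cells 11 neutrophil markers summed to 138.0 to 502.0 against 646.1 and 749.3, with 9 of 11 higher and MMP8 at 0. In macrophage-like cells 10 monocyte markers summed to 2365 to 2820 in controls and to 1055 and 1461 in IRI CD45+ libraries, with 3 of 10 higher and VNN1 at 0. Erythroid and fibroblast lists were lower in the IRI CD45+ libraries. The 2 erythroid markers, HBB and SLC4A1, summed to 343.4 to 1244 in control T-like cells and to 0 and 0.1915 in IRI CD45+ ones, and were lower without overlap in the cytotoxic-like, plasma-like, dendritic-like and mast- or basophil-like classes too. The 14 fibroblast markers summed to 73.87 to 324.3 against 5.804 and 7.196 in cytotoxic-like lymphocytes, with 4 at 0, and to 396.5 to 788.2 against 28.79 and 30.25 in macrophage-like cells, with 10 at 0. They were also lower without overlap in T-like, plasma-like and mast- or basophil-like cells. In mast- or basophil-like cells 11 neutrophil markers summed to 0 to 34.16 in controls and to 67.93 and 316.3 in IRI CD45+ libraries, with 6 of 11 higher. Lower sums were found for T cell markers in that class and AT2 markers in T-like cells. The same held for endothelial markers in macrophage-like and macrophage markers in dendritic-like cells. Only lists that reached 200 CPM in a library are given so far. Below that, the erythroid markers of B-like cells summed to 30.70 to 142.7 in controls and to 4.495 and 0.7523 in IRI CD45+ libraries. Their fibroblast markers summed to 53.05 to 190.3 against 1.226 and 5.266. Neutrophil markers of B-like cells went the other way, from 11.89 to 25.06 in controls to 74.77 and 138.8 in IRI CD45+ libraries. The part of these shifts in the changes above was not tested.

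The change in each class was set against that of T-like cells of the same libraries with limma, on differences within a library. Of 41 differences 7 passed an adjusted p of 0.05, all of them smaller changes than in T-like cells. For TAP1 the difference in log2 change was -1.25 ± 0.24 in B-like (adjusted p = 0.0433, limma), -1.15 ± 0.22 in plasma-like (0.0495) and -1.39 ± 0.22 in dendritic-like cells (0.0286). For TAPBP it was -1.12 ± 0.21 in plasma-like (adjusted p = 0.0476, limma), -1.69 ± 0.28 in macrophage-like (0.0306) and -1.06 ± 0.23 in dendritic-like cells (0.0435). For B2M it was -1.03 ± 0.21 in dendritic-like cells (adjusted p = 0.0384, limma). These are 1 call in B-like cells, where 1.53% of all tested genes were lower and 2.51% higher by the same rule, 2 in plasma-like cells (2.42% and 2.58%), 1 in macrophage-like cells (6.97% and 2.73%) and 3 in dendritic-like cells (6.18% and 4.05%). Cytotoxic-like lymphocytes gave no call (0% over all genes), and their B2M change differed from that of T-like cells by 0.00 ± 0.15. Mast- or basophil-like cells gave none either (3.8% and 3.61%). At an unadjusted p of 0.05 limma had 3 differences below 0 in each of these 2 classes and 0 above 0 in any class. A difference below 0 is a larger fall for NLRC5. It was -0.93 ± 0.24 in plasma-like and -0.68 ± 0.27 in B-like cells (unadjusted p = 0.00819 and 0.0447, limma), neither called after adjustment. Each of the 7 was lost in at least 4 of 7 alternatives, and none was called when control replicate 1, 2 or 3 was left out. Without any 1 control, limma called 0 of the 8433 to 9368 genes tested in the B-like, plasma-like, macrophage-like and dendritic-like classes, so the loss is not particular to these genes. All 7 differences kept an unadjusted p under 0.05 in these fits, and the TAP1 difference in dendritic-like cells was -1.40, -1.45 and -1.29 without control replicates 1, 2 and 3.

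Neutrophil-like and monocyte-like cells had too few cells in the controls for a test. Neutrophil-like cells, which numbered 4 to 9 in each control, held 555.9 and 432.4 CPM of TAP1 and 5551 and 6300 of B2M in IRI CD45+ libraries. Their PSMB8 level was 912.6 and 613.2 and their TAPBP level 245.5 and 205.6. The TAPBP values exceeded those of every other class in these 2 libraries. Monocyte-like cells held 290.3 and 197.4 of TAP1 in IRI CD45+ libraries and 140.2 and 201.0 in the 2 controls with at least 20 such cells, so the groups overlapped.

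Immune cells left in the IRI CD45- library gave another view of the graft, with no replicate of its own. T-like cells there held 4443 CPM of B2M and 609.2 of TAP1, beside 4503 to 4561 and 639.9 to 664.9 in the IRI CD45+ libraries. Cytotoxic-like lymphocytes held 5300 and 426.8, beside 5180 to 5188 and 471.1 to 502.4. NLRC5 was lower in this library than in any other in both classes, at 28.80 and 18.11. Other RNA was present in these cells: 11 AT2 markers summed to 6957 in T-like cells of this library against 30.26 to 342.7 in the other 5, and 2 erythroid markers to 51920. Of its T-like cells 79.1% lay in cluster 2.5, while those of the IRI CD45+ libraries lay mainly in cluster 2.6. Cluster 2.5 was led by HBB and scored higher for erythroid than for T cell markers (2.342 against 1.252), so its name is less sure. With this library added to the graft side, 23 gene and class pairs were higher and 4 lower. Mast- or basophil-like cells, 17 in this library, were not in that fit, so the counts cover fewer classes than those above. Over all genes, 2794 were higher and 3138 lower of 11100 in T-like, and 2769 and 3259 of 11589 in cytotoxic-like cells. In B-like cells these were 1722 and 1886 of 8447, and in plasma-like 1415 and 1750 of 9381. Macrophage-like cells had 1023 and 1561 of 8874, dendritic-like 1467 and 1789 of 8645.

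In the same IRI CD45- library, immune cells held more of all 7 genes than structural cells. B2M was 4317 in 1815 immune cells and 1589 in 12719 structural cells, a ratio of 2.72, where the controls had ratios of 0.574, 0.670 and 0.912. For TAP1 the ratio was 4.58 (392.7 against 85.78), beside 1.70 to 2.23 in controls. For PSMB8 it was 6.56 (484.2 against 73.87), beside 3.22 to 4.23, and for PSMB9 it was 3.30, inside the control range of 2.18 to 3.59. The structural cells differed in kind: 8180 of the 12719 were AT2-like in this library. Fibroblast-like cells, the main structural class of the controls, numbered 6 in the main clustering. With finer clustering at least 20 cells of this library had that name, so the number depends on the clustering. The ratios are therefore values side by side, with no test.

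The endothelial-like and the smooth muscle- or pericyte-like class could be compared between the control libraries and the single IRI CD45- library, on the assumption that it varies as the controls do. In endothelial-like cells edgeR called 0 genes higher and 1 lower of 7, where 17.2% of all tested genes were higher and 12.8% lower. In smooth muscle- or pericyte-like cells 0 were called in either direction (21.6% and 14.7%). At an unadjusted p of 0.05 edgeR had 0 higher in endothelial-like cells, and 1 higher and 2 lower in smooth muscle- or pericyte-like cells. DESeq2 called 0 of the 14 values in either direction, with 1 lower at an unadjusted p of 0.05, and stricter cell filters gave 1 higher, TAP1 in smooth muscle- or pericyte-like cells. The call was NLRC5 in endothelial-like cells, at 84.74, 101.8 and 104.9 in controls and 27.22 (95% Poisson interval 18.23 to 39.09) in the graft, a log2 change of -1.45 ± 0.51 (adjusted p = 0.0267, edgeR). It was not called without control replicate 3 (adjusted p = 0.0882 to 0.197 over the settings that lost it).

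B2M in endothelial-like cells was 7751, 5987 and 5760 in controls and 3693 (3578 to 3810) in the graft, below every control. After scaling by TMM the log2 change was -0.42 ± 0.33 and not called (adjusted p = 0.346, edgeR). In smooth muscle- or pericyte-like cells it was 3499, 3471 and 2881 against 1926 (1861 to 1993), with a log2 change of -0.29 ± 0.33 (adjusted p = 0.521, edgeR). TAP1 in the latter class was 79.27, 78.06 and 100.4 in controls and 112.0 (96.68 to 129.0) in the graft, with a log2 change of 0.85 ± 0.40 (adjusted p = 0.0862, edgeR). Scaled by library totals alone, 6 of the 14 values were called lower, and the share of higher genes among all calls moved from 57.4% to 37.2% in endothelial-like and from 59.5% to 36.4% in smooth muscle- or pericyte-like cells.

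The 2 structural classes of this library did not look alike in the groups. The 14 endothelial markers summed to 8754 to 10730 in control endothelial-like cells and to 4407 in the graft, where 11 AT2 markers summed to 46770 against 44.77 to 62.44, mostly SFTPC. The 13 smooth muscle and pericyte markers summed to 14830 to 19320 in controls and to 4350 in the graft, where 1 of 13 was higher than in controls. There 11 AT2 markers summed to 41150 against 41.33 to 80.76. No AT2 marker was at 0 in either graft class. Graft endothelial-like cells came from cluster 26 (99.1%) and control ones from cluster 6 (98.3%). In these graft cells 8 lymphatic endothelial markers summed to 4393 against 298.4 to 735.9 in controls, with 6 of 8 higher. The most abundant was CCL21, at 3045 against a control mean of 11.3. Cells named lymphatic endothelial-like numbered 42, 139 and 153 in the controls and 2 in this library, so the graft class may hold lymphatic cells too. The name of the smooth muscle- or pericyte-like class thus rests on weaker markers in the graft. The part of the surfactant RNA and of the lymphatic markers in the values was not tested.

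The epithelium was captured almost wholly in the IRI CD45- library, so its classes have levels but no comparison. AT2-like cells, the surfactant makers of the alveolus (8180 cells), held 1281 CPM of B2M (95% Poisson interval 1266 to 1296), the lowest of any class of this library. TAP1 was 68.95 (65.53 to 72.51) and NLRC5 4.168 (3.36 to 5.11) in these cells. Basal-like cells, the stem cells of the airway lining (481 cells), held the most TAP1, TAP2, TAPBP, PSMB8 and PSMB9 among the 5 epithelial classes. Their TAP1 level was 175.6 (154.4 to 198.8) and their PSMB9 level 209.4 (186.3 to 234.6), above the intervals of secretory-like cells (107.2 to 127.7 and 93.65 to 112.9). Their TAP2 level of 50.77 (39.72 to 63.93) compares with 3.845 to 18.07 in the other 4. Ciliated-like cells held 76.91 of TAP1 and 86.63 of PSMB8, and AT1-like cells 61.53 and 57.68 from 16 and 15 UMIs.

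The wider pathway gives the setting of the 7 genes. Of 37 other pathway genes on a list chosen for their role, 27 were listed in all 6 libraries. In T-like cells 11 of the 27 tested rose and 3 fell, in cytotoxic-like lymphocytes 12 and 3, and in B-like cells 10 and 4 of 26 (edgeR, adjusted p of 0.05). In plasma-like cells 7 rose and 6 fell of 26, in dendritic-like cells 8 and 4, and in macrophage-like cells 3 and 2. The shares of all genes called are those given above for the same classes. The median log2 change of the list was 0.15 in T-like, 0.48 in cytotoxic-like, 0.25 in B-like, 0.04 in plasma-like, 0.12 in dendritic-like, 0.50 in mast- or basophil-like and -0.08 in macrophage-like cells.

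Among the receptors and signal carriers of interferon gamma, IFNGR1 and JAK1 rose in 6 of 7 classes each. IFNGR1, the ligand-binding receptor chain, changed by 2.06 ± 0.18 in T-like, 1.76 ± 0.16 in cytotoxic-like and 1.74 ± 0.28 in plasma-like cells (log2, SE, edgeR). JAK1, its kinase, changed by 1.09 ± 0.12 in T-like and 1.46 ± 0.18 in macrophage-like cells. IFNGR2, the signalling chain, rose in 4 classes, by 2.16 ± 0.18 in T-like cells. JAK2 was called in none of the 7. IFNG itself was tested in T-like and cytotoxic-like cells only and changed by -0.90 ± 0.76 and 0.64 ± 0.67, not called in either.

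The regulators split. RFX5, part of the complex on class I and class II promoters, rose in 5 classes, by 1.37 ± 0.20 in T-like and 1.99 ± 0.26 in plasma-like cells. IRF1, an interferon-induced activator, rose in 3 classes, by 0.86 ± 0.12 in T-like, 0.69 ± 0.10 in cytotoxic-like and 0.82 ± 0.14 in B-like cells. IRF2, a relative of IRF1, fell in 4 classes, with log2 changes of -3.29 in macrophage-like and -0.76 in B-like cells. IRF8, which also marks dendritic cells, fell in 4 classes, with log2 changes of -1.56 in T-like and -0.89 in dendritic-like cells, and rose in cytotoxic-like cells. NFYC, a subunit of a CCAAT-binding complex, fell in 2 classes.

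Several chaperones of the loading complex rose in lymphocytes. CANX, which folds new heavy chains, rose in 6 classes, by 1.12 ± 0.14 in T-like and 1.08 ± 0.13 in dendritic-like cells. PDIA3, the disulfide isomerase bound to tapasin, rose in 5, by 0.74 ± 0.12 in T-like and 0.90 ± 0.09 in cytotoxic-like cells. CALR rose in 2 classes, TAPBPL in 2, and HSPA5, a general chaperone of the endoplasmic reticulum, rose in 3 and fell in 2. Of the trimming enzymes, ERAP2 rose in 4 classes, by 1.16 ± 0.12 in T-like cells, and ERAP1 in 2, by 1.61 ± 0.17 in T-like cells.

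The remaining proteasome genes did not move as 1 group. PSMB10, another immunoproteasome subunit, rose in T-like (0.82 ± 0.15) and B-like cells (0.91 ± 0.19) and fell in macrophage-like (-1.06 ± 0.31) and dendritic-like cells (-0.82 ± 0.28). PSME1, a proteasome activator, fell in 4 classes, with a log2 change of -0.84 in dendritic-like cells. In endothelial-like cells 5 of 25 pathway genes rose and 2 fell, where 17.2% of all tested genes were called higher and 12.8% lower. In smooth muscle- or pericyte-like cells 9 of 21 rose and 1 fell (21.6% and 14.7%). HSPA5 changed there by 2.62 ± 0.32 and 2.97 ± 0.30, IFNGR2 by 1.81 ± 0.39 and 2.83 ± 0.33, and IFNGR1 by 1.97 ± 0.42 in the latter class. IRF1 changed by 1.48 ± 0.40 in endothelial-like cells.

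**Figure D5:**
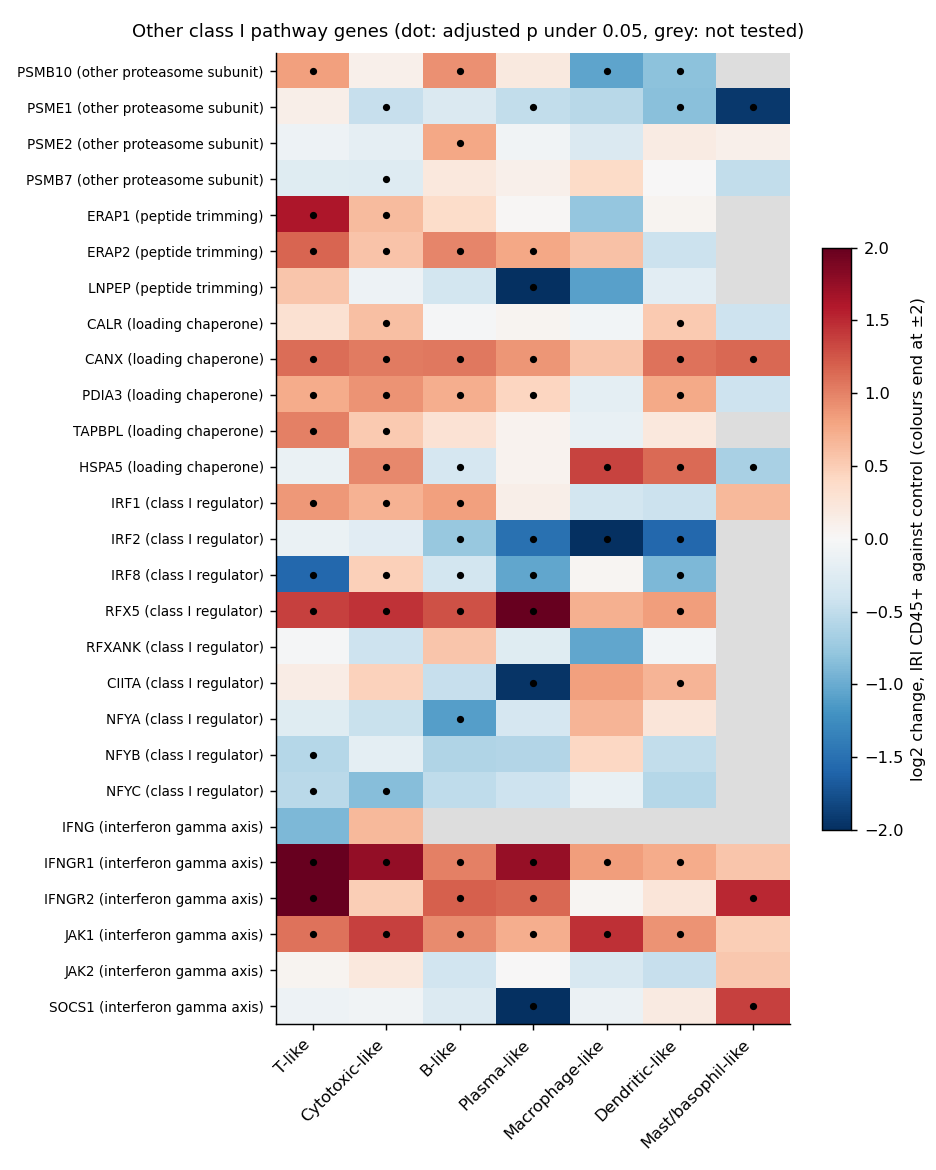
Log2 change (colour, IRI CD45+ against control) of the 27 other pathway genes in 7 immune classes; a dot marks an adjusted p of 0.05 or less by edgeR and grey squares were not tested. IFNGR1, JAK1 and CANX carry dots in 6 of 7 columns, all in the red of higher values.

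Across all 71 sums of a class in a library, the members varied together to unequal degrees. The sums share libraries and depth, so the coefficients are descriptions. PSMB8 and PSMB9 were closest (Pearson r of log2 levels 0.864), followed by TAP1 with PSMB9 (0.778) and with PSMB8 (0.674). Over the 38 control sums PSMB8 and PSMB9 had r = 0.889. NLRC5 was least like the other 6 (0.303 with their mean) and B2M next (0.415), and between these genes r was 0.0884. PSMB8 had the highest value with the mean of the others (0.807). Among 2863 genes with a symbol and a mean of at least 50 CPM, those most like the mean of the 7 were GBP1 (0.749), GNAI2 (0.741), SERPINB9 (0.737), HERC6 (0.715), ICAM2 (0.712), FUNDC1 (0.692), CORO1A (0.691) and PARP14 (0.684).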

How the data were processed

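The 6 deposited matrices hold counts, that is UMIs per gene and cell without normalization, which per the file headers the authors wrote with PISA. Sscrofa11.1, R 4.2.2 and Seurat 5.5.3 come from the submitters' processing notes. For the aligner and annotation: not given in the sources used here. Cells with at least 500 UMIs, 200 genes and at most 20% mitochondrial UMIs were kept. The deposited control matrices held no cell under 1001 UMIs, while the IRI CD45+ matrices went down to 74 and 115 and IRI CD45- to 117. Cells of 500 to 1000 UMIs thus came from IRI libraries only. The stricter filter, at 1000 UMIs, sets the groups alike in this. With it the calls of B2M and TAP1 in dendritic-like and of PSMB8 in B-like cells were lost. Scrublet called 0 to 5 doublets per library, so it has not worked, and removing the top 6% of scores was added after seeing the data. Cells were clustered with scanpy 1.11.5 (2000 variable genes, 30 components, 15 neighbours, Leiden resolution 1.0, no integration) without the 7 genes and the pathway list. Clusters were named from 20 marker lists, with at least 3 markers above 2-fold; 13 of 50 stayed unnamed.

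UMIs were summed per class and library with at least 20 cells. Groups were compared with edgeR 4.0.16 (TMM, filterByExpr, robust quasi-likelihood) and class differences with limma 3.58.1 (prior count 2), with Benjamini-Hochberg adjustment over all genes tested and a threshold of 0.05. Printed levels are CPM without TMM; log2 changes are with it, so the groups' overlap is stated for the levels. Intervals are exact Poisson and cover counting error only. All 7 genes are reported in every class; other pathway genes are named where called in at least 2 immune classes in 1 direction, or among the 3 smallest p in structural classes, and IFNG and JAK2 were named after their values were seen; 1 more gene of the pathway list was left out of every count and figure and is not reported here. The members and lists were chosen with earlier results of these data known. The tests were run on simulated data. Alternatives were DESeq2 1.42.0, other scalings, filters, clusterings, thinning, a replicate block and leaving out each library.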

Additional observations from a re-analysis of the deposited data

Results flagged for a closer look

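In 7 places the log2 change between control and IRI CD45+ libraries differed between a class and T-like cells by the limma test of the difference itself, and each was negative. For TAP1 the difference was -1.25 in B-like, -1.15 in plasma-like and -1.39 in dendritic-like cells. For TAPBP it was -1.12 in plasma-like, -1.69 in macrophage-like and -1.06 in dendritic-like cells. For B2M it was -1.03 in dendritic-like cells. Each of the 7 calls was lost in at least 4 of 7 alternatives, and none remained when any control was left out. All 7 rest on the same T-like values, so they are not independent of each other. Most T-like cells of the groups lay in different clusters (cluster 0 in controls, cluster 2.6 in IRI CD45+ libraries), whose part in these differences was not tested.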

How the results depend on the processing

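Of the 24 calls between control and IRI CD45+ libraries, 18 were kept in all 18 alternatives and 6 were lost in some, as given above; none reversed. Leaving out 1 library at a time gave 18 to 22 calls higher and 3 to 4 lower. Values that no setting called changed sign in 30 cases there and in 10 for the structural classes. Labels do not say which libraries pair. A check of same-numbered libraries gave coefficients of 0.04 and 0.18 in T-like cells and -0.11 and -0.07 in macrophage-like cells. Against the same control, the coefficients of the 2 IRI CD45+ libraries were equal with opposite signs (-0.18 and 0.18 for control replicate 2 in T-like cells). They are thus not correlations of the levels themselves and cannot show which libraries pair. The replicate block gave 18 calls higher and 3 lower.

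In the structural classes the 1 lower call became 0 with DESeq2, with no filter on low counts and with the top doublet scores removed, 2 with finer clustering and 6 with library totals; stricter cell filters gave 1 higher call. Leaving out 1 library gave 0 to 1 lower and 0 higher there. With finer clustering fibroblast-like cells also had enough graft cells to enter, so the count under that setting covers this added class. Library totals alone moved the median of all genes by -0.23 in T-like, -0.12 in macrophage-like, 0.11 in plasma-like, 0.18 in mast- or basophil-like, -0.40 in endothelial-like and -0.49 in smooth muscle- or pericyte-like cells, and by -0.19 between the compartments.

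Between immune and structural cells of the controls, the 6 higher calls became 2 with endothelial-like cells alone, where 3081 of 15135 tested genes were higher. TAP2, TAPBP and NLRC5 reversed there to -0.22, -0.36 and -0.040. The 1 lower call became 0 with fibroblast-like cells alone and without T-like and cytotoxic-like cells, and 0 to 1 when a library was left out, with 6 to 6 higher. The 7 differences from T-like cells became 4 with a prior count of 0.5, 1 against cytotoxic-like lymphocytes, and 0 to 5 without 1 library. The cause of these changes was not tested. Precision is limited by cell number in macrophage-like (33 and 35 cells in IRI CD45+ libraries) and mast- or basophil-like cells (31 in control replicate 1, 36 in IRI CD45+ replicate 2), and by the lone IRI CD45- library.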

Other observations

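The AT2-like cells of the IRI CD45- library fell into 3 large clusters that held unlike levels of these genes, given with 95% Poisson intervals and no test because they come from 1 library. Cluster 15 (6463 cells), led by the surfactant gene SFTPC, held 1257 CPM of B2M (1240 to 1274) and 61.99 of PSMB8 (58.29 to 65.86). Cluster 23 (481 cells), led by SFTPD, held 2213 of B2M (2127 to 2301) and 178.4 of PSMB8 (154.7 to 204.7), the highest of the 3. Cluster 18 (1236 cells), with the metallothioneins MT1A and MT1X and the growth factor CSF3 but no AT2 marker among its top 10 genes, held 1118 of B2M (1086 to 1151) and 42.67 of PSMB8 (36.57 to 49.51). TAP1 followed the same order, at 121.3 (101.9 to 143.3) in cluster 23, 70.71 (66.75 to 74.84) in cluster 15 and 47.09 (40.66 to 54.24) in cluster 18.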
